A study of Nematostella vectensis and Apis mellifera and Strongylocentrotus purpuratus with 22 samples.

Results

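Sea squirt (Ciona savignyi) cleavage embryos were compared with sea squirt sperm, and these are 2 of the 22 samples of the study. DNA methylation was measured by whole-genome bisulfite sequencing (WGBS) in gametes and early embryos of sea squirt, sea urchin, sea anemone and honey bee. Bisulfite treatment turns cytosines without methylation into bases that sequence as thymine, and leaves methylated cytosines unconverted. The methylation level of a CpG is the fraction of its reads that show methylation. Both samples came from untreated wild animals collected in the bay of Yantai, China. Chorions were taken off the embryos, which were then washed many times. Embryos that still carried somatic cells were picked out with a glass capillary. How many animals gave the gametes and the embryos is not given in the sources used here. The labels give 3 replicates for cleavage embryos and 3 for sperm, but the deposited counts pool them into 1 set of counts per stage. Differences computed from these counts therefore carry no replicate error, and whether they exceed the spread between replicates was not tested here. The mean levels that the study lists for each replicate were not used. A difference of stage and a difference between the animals that were sampled cannot be told apart in the pooled counts. Sea squirt oocytes and gastrulae, for which 3 and 2 replicates were pooled, served to sort CpGs by a level measured in neither of the stages compared.

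Cleavage is the series of fast cell divisions that follows fertilization, and it splits the egg into smaller cells with little growth. In animals, a maintenance methyltransferase copies CpG methylation onto the new strand after each round of replication, and enzymes that oxidize methylated cytosine, or replication without this copying, lower the level. Sea squirts are invertebrate relatives of the vertebrates, and their genomes are a mosaic of methylated blocks, mostly over gene bodies, and unmethylated stretches. The sperm brings the paternal copy of this pattern, and the embryo starts with a maternal copy from the oocyte as well. The comparison asks how much the methylome of the early embryo differs from that of sperm, and where.

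The calls list 4109288 CpGs in cleavage and 4101206 CpGs in sperm. The reads over these CpGs number 347709270 in cleavage and 265282981 in sperm, with a median of 50 reads per CpG in cleavage and 41 in sperm. Reads are summed over CpGs here and below, so a read that covers several CpGs is counted at each of them. At least 5 reads were found at 97.5% of the CpGs in cleavage and at 96.3% of the CpGs in sperm. Compared were 3906308 CpGs that had 5 reads or more in each of the stages, which are 94.7% of the CpGs listed for either. Their median depth was 53 reads in cleavage and 43 reads in sperm. Cleavage was thus the deeper set. Where a value is given at equal depth, the deeper counts of each CpG were thinned to the depth of the other stage.

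Reads were very unequal over the assembly. The 135 CpGs of scaffold_1, which spans less than 15 kb with CpGs at positions 9 to 14595, held 8.97% of all reads in cleavage and 0.0486% in sperm, and this is a 185-fold difference in share. Over the other 364 scaffolds the same ratio lay between 0.472 and 1.35, with a median of 0.903. Scaffold_1 held 22.0% of the reads in oocytes and 0.961% in gastrulae. Its pooled methylation level was 0.00684 in cleavage and 0.00797 in sperm, and it was thus unmethylated in both.

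The mean methylation level of the compared CpGs was 0.275 in cleavage and 0.289 in sperm. The difference, cleavage minus sperm, was -0.0145, with a 95% binomial confidence interval of -0.0145 to -0.0144 by the normal approximation. The level of cleavage was thus 94.99% of that of sperm. This interval, like the others given here, covers counting error only. The reads come from PCR-amplified libraries without molecular identifiers, and the interval is therefore not that of a difference between animals. The level was lower in cleavage at 43.0% of CpGs, higher at 26.9% and equal at 30.1%. At equal depth these shares were 37.1%, 21.7% and 41.2%, and the difference was again -0.0145. Most CpGs differed little, as 88.0% had levels within 0.1 of each other and 3.07% differed by at least 0.2. These shares include the unmethylated CpGs, which have little room to differ. At or below 0.1 in sperm were 63.58% of the compared CpGs, and 98.3% of these were so in cleavage. The shares among methylated CpGs alone were not computed.

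The weight given to deep CpGs changed the size of this difference. When the reads of all compared CpGs were pooled, the level was 0.190 in cleavage and 0.223 in sperm, a difference of -0.0338. Without scaffold_1 the pooled level was 0.208 in cleavage and 0.224 in sperm, a difference of -0.0158. The mean over CpGs did not move when this scaffold was left out. CpGs with over 5 times the median depth made up 2.48% of the CpGs in cleavage and 2.58% in sperm, but 30.4% of the reads in cleavage and 24.6% in sperm. Their pooled level was 0.0953 in cleavage and 0.153 in sperm. CpGs of scaffold_1, with a median depth of 240368 reads in cleavage and 965 in sperm, are among them. That scaffold held 8.97% of all reads in cleavage and 0.0486% in sperm. It therefore weighs far more on the cleavage value, and the level of deep CpGs without it was not computed.

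Incomplete conversion adds a small level to unmethylated CpGs. In the 62289 windows of 1000 bp that were below 0.05 in both oocytes and gastrulae, the mean CpG level was 0.00886 in cleavage and 0.0104 in sperm. After these values were subtracted, the mean level over all compared CpGs was 0.266 in cleavage and 0.279 in sperm, a difference of -0.0130. The sign was kept, and the difference was slightly smaller. Whether the low level in these windows is incomplete conversion or methylation was not tested.

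The lower level of cleavage was seen foremost at the highest levels. CpGs above 0.9 made up 11.04% of the compared CpGs in cleavage and 17.57% in sperm. CpGs between 0.1 and 0.9 made up 24.97% in cleavage and 18.85% in sperm, and CpGs at or below 0.1 made up 63.99% in cleavage and 63.58% in sperm. Methylated CpGs were thus shifted below 0.9, while the share of unmethylated CpGs was nearly the same. The topmost interval, 0.95 to 1, held 4.08% of CpGs in cleavage and 10.7% in sperm. The interval below it, 0.9 to 0.95, held 7.56% in cleavage and 7.53% in sperm. Between 0.8 and 0.9, the order was turned round, with 6.41% in cleavage and 3.81% in sperm from 0.85 upward, and 4.35% in cleavage and 2.63% in sperm below that. At equal depth, CpGs above 0.9 made up 11.2% in cleavage and 17.5% in sperm, and the topmost interval held 4.86% in cleavage and 10.8% in sperm, so that the order was the same.

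**Figure D1:**
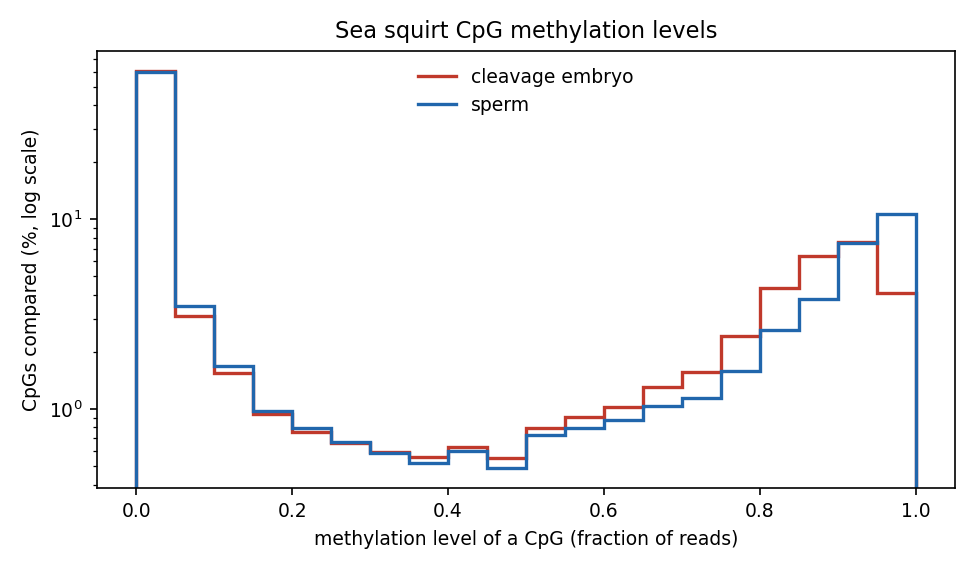
Share of the 3906308 compared CpGs (vertical axis, percent, log scale) by methylation level (horizontal axis, intervals of 0.05), with cleavage embryos in red and sperm in blue. The curves lie close together at low levels, cleavage is higher between 0.8 and 0.9, and sperm is higher from 0.95 to 1 (4.08% in cleavage and 10.7% in sperm).

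CpGs without a single unmethylated read were rarer in cleavage. Among 2455144 CpGs where each stage had 30 reads or more, 0.152% had a level of exactly 1 in cleavage and 1.20% in sperm. After thinning to equal depth, the shares were 0.243% in cleavage and 1.33% in sperm. The gap was thus also found at equal depth. A level of exactly 0 was found at 36.6% of these CpGs in cleavage and at 36.8% in sperm, and the order of these shares was turned round by thinning, with 40.3% in cleavage and 37.4% in sperm.

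Few CpGs crossed between the extremes. Of the 686412 CpGs above 0.9 in sperm, 51.2% were also above 0.9 in cleavage, 48.8% were between 0.1 and 0.9, and 0.00262% were at or below 0.1. Of the 2483553 CpGs at or below 0.1 in sperm, 98.3% were at or below 0.1 in cleavage, 1.66% were between the bounds and 0.000685% were above 0.9. The 736343 CpGs between the bounds in sperm were split in cleavage into 81.4% between, 10.8% above and 7.78% below. These shares sort CpGs by their level in sperm, and the counting error of the sperm level enters them.

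Sorting by the level in gastrulae avoids this, since the gastrula calls are in neither stage compared. The level of cleavage was below that of sperm in each of 10 intervals of the gastrula level. In CpGs at or above 0.9 in gastrulae (460549 CpGs), the mean level was 0.896 in cleavage and 0.937 in sperm, a difference of -0.0408. In CpGs from 0.5 to 0.6 it was 0.578 in cleavage and 0.612 in sperm, a difference of -0.0345. In the 2313799 CpGs below 0.1 it was 0.0119 in cleavage and 0.0137 in sperm, a difference of -0.00175. The difference thus grew with the level up to the interval from 0.8 to 0.9, where it was -0.0426. As a share of the sperm level, cleavage varied less. It was 95.7% in the highest interval, 94.4% from 0.5 to 0.6, 92.4% from 0.1 to 0.2 and 87.2% in the lowest. With the level of unmethylated windows subtracted, it lay between 92.6% in the lowest interval and 95.8% in the highest.

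**Figure D2:**
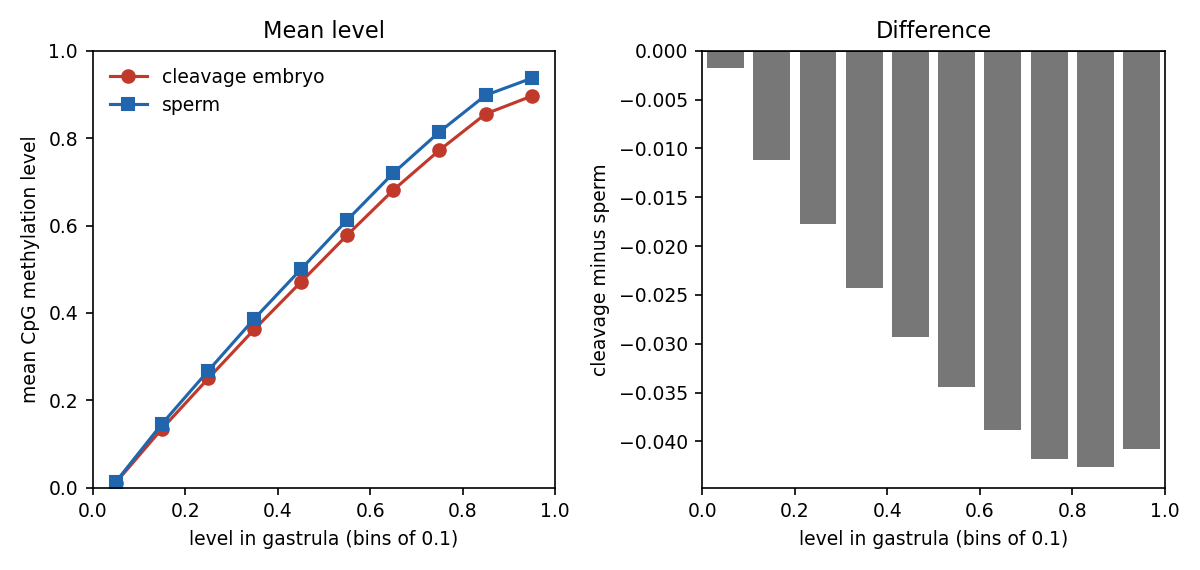
Mean CpG methylation level of cleavage embryos (red circles) and sperm (blue squares), on the left, and cleavage minus sperm, on the right, by the level of the CpG in gastrulae in intervals of 0.1 (horizontal axes). Cleavage lies below sperm in every interval, and the difference is -0.00175 in the lowest and -0.0426 from 0.8 to 0.9, with no error bars as each stage is 1 pooled set of counts.

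The lower level in methylated CpGs was found at most of them. In the highest gastrula interval, the level was lower in cleavage at 73.3% of CpGs and higher at 23.4%. When CpGs were sorted by the oocyte level instead, cleavage was again below sperm in each interval. In CpGs at or above 0.9 in oocytes, the mean level was 0.898 in cleavage and 0.936 in sperm, a difference of -0.0385.

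Cleavage stood between the gametes in its mean level. Over 3588868 CpGs that had 5 reads or more in each of the 4 stages, the level was 0.281 in sperm, 0.260 in oocytes, 0.267 in cleavage and 0.269 in gastrulae. The mean of sperm and oocytes was 0.271, and the difference of cleavage from it was -0.00349. Gastrulae were above cleavage by 0.00182. The gap between cleavage and sperm was the larger of these, and none of them was set against the spread between replicates.

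To find where cleavage and sperm differ, the genome was divided into windows of 1000 bp, and 139467 windows with at least 3 compared CpGs were tested. The reads of a window were compared by Fisher's exact test (two-sided) with Benjamini-Hochberg adjustment, and a window was counted where the adjusted p was below 0.05 and its mean CpG levels differed by 0.2 or more. This test compares a pair of pooled libraries and not the conditions. The reads of a window are summed over its CpGs, and the test and the intervals treat these counts as independent. CpGs of a window can lie on the same reads, so the adjusted p can be too small and the intervals too narrow. Counted were 345 windows, or 0.247% of those tested, of which 266 (0.191%) were lower in cleavage and 79 (0.0566%) were higher. Windows of large difference were thus rare, and 77.1% of them were lower in cleavage. The adjusted p alone was passed by 37410 windows that were lower in cleavage (26.8%) and 4398 that were higher (3.15%), so that small differences over many windows made up the bulk.

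The directions were also counted after centring, which by its construction brings them nearer to balance. When each window was compared with the mean difference of windows of like gastrula level, 251 windows were counted, 136 lower in cleavage and 115 higher, and 54.2% of them were thus lower. Window by window, the level averaged 0.374 in cleavage and 0.393 in sperm, and the difference averaged -0.0195 with an SD over windows of 0.0382. The median difference was -0.00584, which lies near 0 as most windows were unmethylated in both stages.

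The shift was found at most windows of the methylated part of the genome. Of the 41785 windows above 0.8 in gastrulae, 91.3% had a lower level in cleavage. These windows averaged 0.853 in cleavage and 0.895 in sperm, a difference of -0.0414 with an SD over windows of 0.0351, and the 5th and 95th percentiles of the difference were -0.0970 and 0.0115. The centre of this distribution lay toward lower levels, with a median of -0.0408, while its upper tail lay above 0. In these windows 46 were counted as lower in cleavage and 5 as higher, while the adjusted p alone was passed by 50.1% that were lower and 0.493% that were higher. The 23256 windows from 0.2 to 0.8 in gastrulae averaged 0.613 in cleavage and 0.646 in sperm, a difference of -0.0333 with a wider SD of 0.0579. A lower level in cleavage was found in 78.0% of them. They held most of the counted windows, with 175 lower in cleavage and 59 higher. The 73275 windows below 0.2 averaged 0.0219 in cleavage and 0.0244 in sperm, and 23 were counted as lower in cleavage and 12 as higher.

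**Figure D3:**
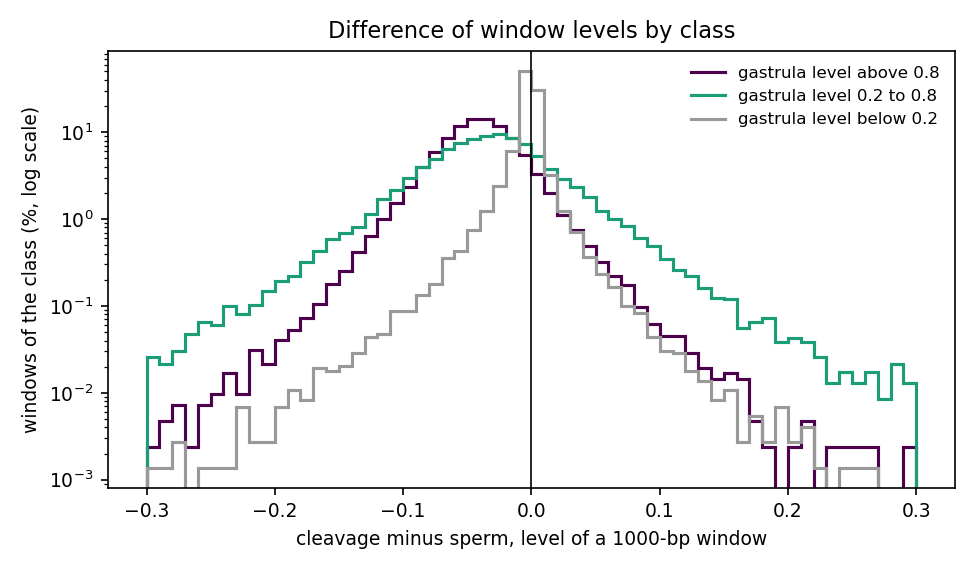
Cleavage minus sperm of the level of 1000-bp windows (horizontal axis, shown between -0.3 and 0.3), as the percent of windows of a class (vertical axis, log scale), for windows above 0.8, from 0.2 to 0.8 and below 0.2 in gastrulae. The curve of windows above 0.8 peaks to the left of 0 (mean -0.0414), and windows from 0.2 to 0.8 have the widest tails.

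Methylated windows mostly stayed methylated. Windows above 0.8 numbered 41956 in cleavage (30.1%) and 48817 in sperm (35.0%), windows from 0.2 to 0.8 numbered 23639 in cleavage (16.9%) and 17175 in sperm (12.3%), and windows below 0.2 numbered 73872 in cleavage (53.0%) and 73475 in sperm (52.7%). At equal depth, 29.9% of windows were above 0.8 in cleavage and 34.99% in sperm. Of the windows above 0.8 in sperm, 84.4% were above 0.8 in cleavage, 15.6% were from 0.2 to 0.8 and 0 were below 0.2. Of the windows below 0.2 in sperm, 99.5% were below 0.2 in cleavage, 382 were from 0.2 to 0.8 and 0 were above 0.8. No window crossed from methylated to unmethylated or the other way. The 7619 windows that were above 0.8 in sperm and below it in cleavage had a median level of 0.776 in cleavage and 0.840 in sperm. At least 0.7 was kept in cleavage by 95.5% of them, and 112 (1.47%) were counted. Most of these windows thus lay near the bound in sperm and moved a short way across it.

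The shift was of like size inside and at the edge of methylated blocks. Windows above 0.8 in gastrulae whose neighbours on both sides were also above 0.8 (21567 windows) differed by -0.0411, with an SD over windows of 0.0325. Those with a neighbour below 0.2 (2704 windows) differed by -0.0430, with an SD of 0.0359. The gap between interior and edge was small beside the spread over windows. Unmethylated windows next to a methylated window (2667 windows) averaged 0.0841 in cleavage and 0.0911 in sperm, and 4 were counted in each direction. Unmethylated windows with unmethylated neighbours (56839 windows) differed by -0.00194.

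CpG number and depth changed the size of the shift little but changed the share of windows that was counted. In windows above 0.8 in gastrulae, the difference was -0.0436 with 3 to 9 compared CpGs, -0.0424 with 10 to 19, -0.0401 with 20 to 39 and -0.0382 with 40 or more. Over all windows, the share counted was 1.24%, 0.324%, 0.145% and 0.0652% in the same order. Windows were also sorted by the lower of their median depths in cleavage and in sperm. Of the 18388 windows with 5 to under 15 reads by this measure, 0.930% were counted, and of the 42497 windows with at least 60 reads, 0.0353% were. Windows with under 15 reads made up 49.6% of the counted windows and 13.2% of all windows tested. The shift in methylated windows was -0.0398 in the shallowest class and -0.0420 in the deepest. Windows with few CpGs and low depth, where a mean level has a larger error, were thus counted more often, though 225 of the 345 counted windows held at least 10 CpGs. The count was 310 when at least 10 reads per CpG were required and 356 at equal depth.

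The shift was spread over the assembly. Of the 220 scaffolds with at least 1000 compared CpGs, 216 had a lower mean level in cleavage and 4 had a higher one, and the median difference was -0.0142. The 5 scaffolds with the most compared CpGs all lay near this value. On scaffold_3 (155550 CpGs) the level was 0.302 in cleavage and 0.317 in sperm, and on scaffold_119 (121335 CpGs) it was 0.296 in cleavage and 0.313 in sperm. On scaffold_88 the difference was -0.0154, on scaffold_266 it was -0.0133 and on scaffold_249 it was -0.0142. The extremes were small scaffolds, chosen here by their values. Scaffold_314 (1443 CpGs) had 0.641 in cleavage and 0.684 in sperm, and scaffold_79 (4360 CpGs) had 0.133 in cleavage and 0.128 in sperm.

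The counted windows were mostly of intermediate level in at least a single stage. The 266 windows counted as lower in cleavage, on 102 scaffolds, had a median level of 0.487 in cleavage and 0.748 in sperm. Their median level was 0.577 in oocytes and 0.599 in gastrulae. The median window held 14 compared CpGs, and in the median window 96.7% of them were lower in cleavage. The 79 windows counted as higher, on 43 scaffolds, had a median level of 0.565 in cleavage and 0.283 in sperm, with 0.443 in oocytes and 0.489 in gastrulae. Their median window held 16 compared CpGs, and in the median window 94.1% of them were higher in cleavage. Their median depth was 21 reads in cleavage and 12 reads in sperm. Cleavage and sperm values of these windows, and the shares of CpGs in each direction, follow from how the windows were chosen. Oocyte and gastrula values did not enter the choice, and in both directions their medians lay between those of cleavage and sperm. This is likely for any other stage in windows chosen for a large gap. Of the windows lower in cleavage with a level there, oocytes lay between in 162 of 233 and gastrulae in 177 of 244. Of those higher, oocytes lay between in 38 of 68 and gastrulae in 45 of 76. Gastrulae were nearer to cleavage than to sperm in 54.1% of the lower and 50% of the higher windows. For oocytes these shares were 56.7% and 48.5%.

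**Figure D4:**
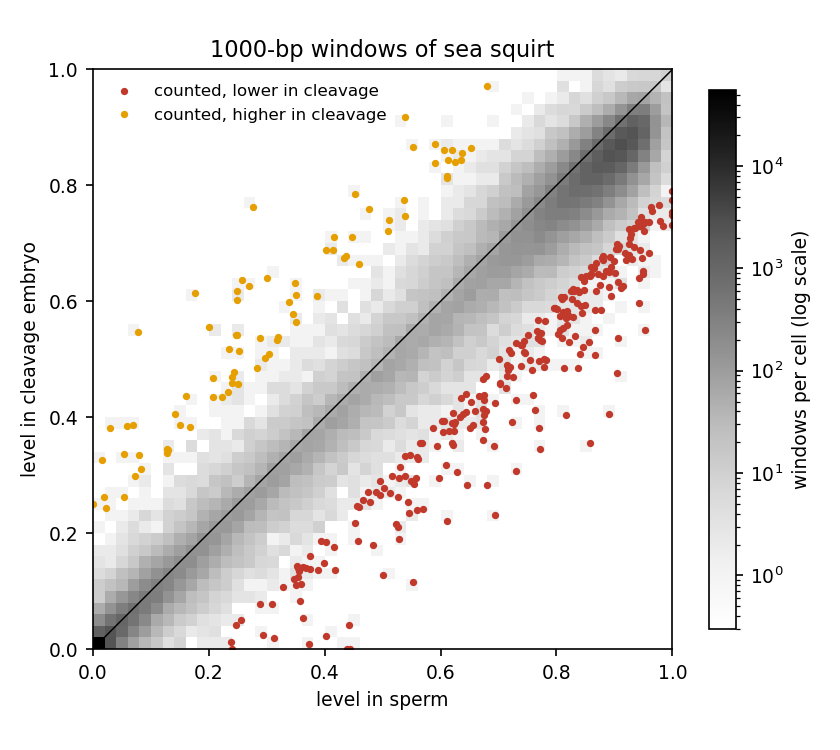
Methylation level of 139467 windows in cleavage embryos (vertical axis) and in sperm (horizontal axis), with the number of windows per cell in grey (log scale). The 266 windows counted as lower in cleavage are red, the 79 counted as higher are orange, and the dense cloud of methylated windows at the top right lies below the line of equal levels.

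The threshold of 0.2 lies in a steep part of the distribution. Past the adjusted p were 202 windows with a difference of 0.2 to 0.25 and 676 windows with a difference of 0.15 to 0.2. A further 47 windows differed by at least 0.2 and missed the adjusted p. Counted windows mostly stood alone. Of the runs of adjacent windows lower in cleavage, 229 were of 1 window, 14 of 2 and 3 of 3, and of those higher in cleavage, 63 were of 1 window, 5 of 2 and 2 of 3. Most counted windows thus had no adjacent window counted in the same direction. Over all windows tested, 0.191% were counted as lower in cleavage and 0.0566% as higher. Beside these shares, runs of 2 or 3 windows were not rare, and their excess was not tested.

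The 5 counted windows that differed most in each direction, among windows with at least 10 compared CpGs, are given with their positions on the assembly CSAV2.0, counted from 1. No gene annotation of this assembly was used here, so the windows carry no gene names. The oocyte or gastrula level of a window is the mean over its compared CpGs with at least 5 reads in that stage. These can be fewer CpGs than were compared between cleavage and sperm. The window most strongly lower in cleavage lies on scaffold_249, from 1894001 to 1895000. Its 14 CpGs averaged 0.405 in cleavage (500 reads) and 0.891 in sperm (236 reads), a difference of -0.486 with a 95% interval of -0.553 to -0.420 and an adjusted p of 2.77e-40 by Fisher's exact test. Each of the 14 CpGs was lower in cleavage, by between 0.351 and 0.579. The level was 0.895 in oocytes and 0.461 in gastrulae, so this window was high in both gametes and between 0.4 and 0.5 in both embryos. The window before it had 0.333 in cleavage and 0.539 in sperm, and was itself counted, and the window after it had 0.182 in cleavage and 0.158 in sperm. Beyond this, the windows from 1897001 to 1900000 were again counted as lower in cleavage.

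On scaffold_80, from 506001 to 507000, 23 CpGs averaged 0.231 in cleavage and 0.693 in sperm (adjusted p = 5.22e-14 by Fisher's exact test). When reads were pooled within the window, the difference was -0.266 in place of -0.462. The 1000 bp before it held a counted window of the opposite sign, with 0.478 in cleavage and 0.243 in sperm. Here CpGs within 2 kb were thus lower and higher side by side. Levels in oocytes and gastrulae were 0.476 and 0.390.

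The other 3 windows lower in cleavage rest on fewer reads. On scaffold_149, from 71001 to 72000, the level of 19 CpGs was 0.116 in cleavage (147 reads) and 0.553 in sperm (193 reads). On scaffold_212, from 922001 to 923000, all 24 CpGs were lower, with 0.307 in cleavage and 0.731 in sperm, and the difference was -0.266 in place of -0.423 when at least 10 reads per CpG were required. On scaffold_362, from 446001 to 447000, 15 CpGs averaged 0.284 in cleavage (126 reads) and 0.681 in sperm (360 reads). This last window lay as a dip between windows of higher level, which had 0.785 in cleavage and 0.751 in sperm before it and 0.812 in cleavage and 0.867 in sperm after it.

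The window most strongly higher in cleavage lies on scaffold_129, from 895001 to 896000. Its 16 CpGs averaged 0.762 in cleavage (492 reads) and 0.276 in sperm (330 reads), a difference of 0.486 with a 95% interval of 0.424 to 0.549 and an adjusted p of 2.42e-41 by Fisher's exact test. All 16 CpGs were higher in cleavage. The level was 0.569 in oocytes and 0.597 in gastrulae, so that sperm was the lowest of the 4 stages. The difference reached past the window, as the window before it, with 0.747 in cleavage and 0.539 in sperm, was also counted.

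On scaffold_266, from 3217001 to 3218000, the level of 10 CpGs was 0.614 in cleavage (211 reads) and 0.177 in sperm (69 reads), and all 10 were higher in cleavage. The windows beside it had higher levels in both stages, with 0.841 in cleavage and 0.684 in sperm before it and 0.830 in cleavage and 0.827 in sperm after it. The window was thus low in sperm within a stretch of high levels. Its sperm depth was low, with a median of 6 reads per CpG. On scaffold_80, from 769001 to 770000, the level of 16 CpGs was 0.602 in cleavage and 0.249 in sperm, with 0.196 in oocytes and 0.534 in gastrulae. Both gametes were below both embryos there, and the next window, with 0.641 in cleavage and 0.301 in sperm, was counted too.

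A pair of windows was high in cleavage alone among the embryos. On scaffold_164, from 1167001 to 1168000, the level of 11 CpGs was 0.382 in cleavage (101 reads) and 0.0305 in sperm (156 reads), with 0.361 in oocytes and 0.0125 in gastrulae (87 reads). On scaffold_236, from 1257001 to 1258000, the level of 12 CpGs was 0.556 in cleavage (152 reads) and 0.201 in sperm (72 reads). In gastrulae it was 0, but only 3 of these CpGs had at least 5 reads there. In oocytes it was 0.439, over 5 of these CpGs. These windows had methylation in cleavage and in oocytes that was not found at this depth in gastrulae. The levels of the stages do not rest on the same CpGs.

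**Figure D5:**
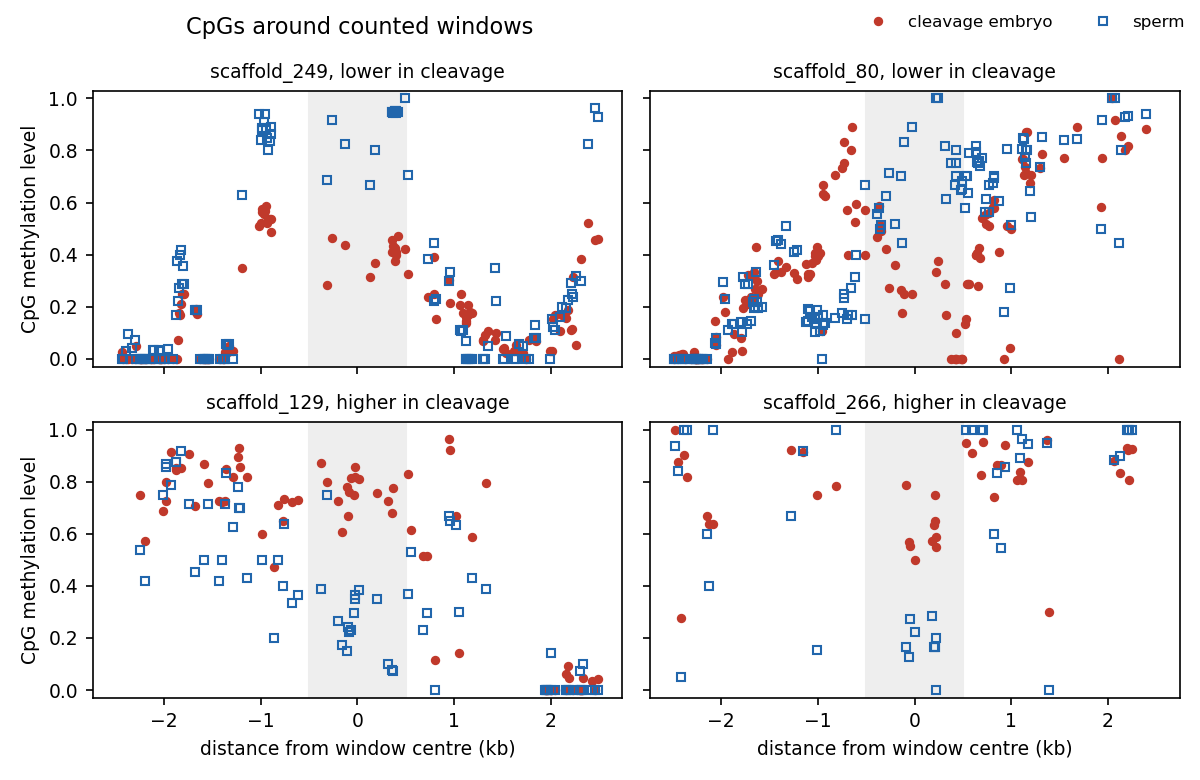
Methylation level of single CpGs (vertical axis) within 2 kb of the edges of the first 2 windows lower in cleavage (top) and the first 2 higher in cleavage (bottom), by distance from the window centre in kb, with cleavage embryos as red circles and sperm as open blue squares. The grey band is the window, and in it all CpGs differ the same way on scaffold_249 (14 of 14 lower), scaffold_129 (16 of 16 higher) and scaffold_266 (10 of 10 higher), while on scaffold_80 the order turns within 1 kb of the band.

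The longest runs were of 3 adjacent windows, with 3 such runs lower in cleavage and 2 higher, and their levels are given as means over windows. On scaffold_216, from 1216001 to 1219000, the run lower in cleavage held 43 CpGs and averaged 0.550 in cleavage and 0.799 in sperm, with 0.762 in oocytes and 0.827 in gastrulae. The windows on either side were unmethylated, so the run spanned a whole block of 3 windows. Its first window was no longer counted when at least 10 reads were required (-0.0895) or when reads were pooled (-0.188), and its middle window was not when depth was made equal (-0.152). On scaffold_227, from 1294001 to 1297000, a run of 27 CpGs averaged 0.306 in cleavage and 0.638 in sperm. Its windows were shallow, with median depths of 6 to 10 reads per CpG in cleavage and 6 to 11 in sperm. The first and last of them had too few CpGs to be tested at 10 reads or more. Where recomputed, its windows were counted. The run on scaffold_249, from 1897001 to 1900000, tied in length with these and was added after its values were seen. It held 73 CpGs and averaged 0.402 in cleavage and 0.690 in sperm, with 0.622 in oocytes and 0.431 in gastrulae. This was the deepest of the runs lower in cleavage, and its windows were counted in 8 of 9 recomputations, the exception being the last window with pooled reads (-0.194).

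Higher in cleavage were 3 windows on scaffold_173, from 181001 to 184000, which held 25 CpGs and averaged 0.538 in cleavage and 0.291 in sperm. This block too was bounded by unmethylated windows on both sides. Its middle window was not counted at equal depth (0.188), and its last was counted under none of the alternatives, with differences of 0.197 at 10 reads or more, 0.199 with pooled reads and 0.167 at equal depth. On scaffold_253, from 1550001 to 1553000, 3 windows with 79 CpGs averaged 0.330 in cleavage and 0.0979 in sperm, with 0.398 in oocytes and 0.429 in gastrulae. Sperm was the lowest of the stages there. Its first window was not counted at 10 reads or more (0.184) or with pooled reads (0.181), nor its middle window with pooled reads (0.188).

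The scaffolds with the most counted windows were large. Scaffold_216 held 14 windows lower in cleavage and 1 higher among 2395 tested (0.626%). Scaffold_88 held 11 lower and 2 higher among 4216 (0.308%). On scaffold_227, 9 were lower and 4 were higher among 1683 (0.772%). Scaffold_249 held 11 lower and 1 higher among 3105 (0.386%), and scaffold_318 held 11 lower and 0 higher among 2141 (0.514%). Over all windows tested the share was 0.247%. These scaffolds were chosen by their counts, so that higher shares follow in part from the choice. Counted windows lay on many scaffolds and not in a single cluster, though some stood close together, as on scaffold_249.

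Single CpGs were tested in the same way. Of 3906308 CpGs, 2590 were counted (0.0663%), 2154 as lower in cleavage (0.0551%) and 436 as higher (0.0112%). Those lower had a median level of 0.371 in cleavage and 0.778 in sperm, and those higher had 0.667 in cleavage and 0.184 in sperm. Complete switches were nearly absent, as 6 of the lower CpGs and 5 of the higher CpGs differed by 0.9 or more. At equal depth 1204 CpGs were counted.

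Most of the counted CpGs lay outside the counted windows. Windows counted as lower in cleavage held 205 CpGs counted as lower and 0 counted as higher among 4387, and windows counted as higher held 0 counted as lower and 34 counted as higher among 1415. These windows together held 9.23% of the counted CpGs. Of their 5802 CpGs 4.12% were counted, where 0.0663% of all CpGs were. Another 27.1% of the counted CpGs lay in windows that differed by less than 0.05, with 477 lower in cleavage and 225 higher. Such windows held 3357238 of the 3906308 CpGs, and 0.0209% of these were counted. Counted CpGs were thus more frequent in counted windows and rarer in windows of small difference. A CpG also enters the test of its own window. The next compared CpG was counted in the same direction after 15.1% of the CpGs lower in cleavage, where 0.0551% of all CpGs were. After CpGs higher in cleavage this share was 10.6%, where 0.0112% of all CpGs were. Adjacent CpGs can lie on the same reads and are not independent.

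The same comparison in the other species of the study gave smaller or opposite differences of the mean level. In sea urchin the level was 0.262 in both cleavage and sperm, a difference of 0.000443 over 10292489 CpGs. In sea anemone from Florida it was 0.115 in cleavage and 0.117 in sperm, and in sea anemone from Massachusetts it was 0.144 in cleavage and 0.133 in sperm. Sea squirt thus had the largest absolute difference of these 4 pairs, -0.0145, but the fewest counted windows. Relative to its sperm level, the Massachusetts pair differed more than sea squirt did. In sea urchin 3.72% of windows were counted, 11572 lower in cleavage (1.87%) and 11510 higher (1.86%), so that the directions were balanced there. In sea anemone 1.22% were counted in the Florida pair, 0.755% lower in cleavage and 0.461% higher, and 3.17% in the Massachusetts pair, 0.54% lower in cleavage and 2.63% higher. The median depths also differed, with 53 reads in cleavage and 43 in sperm for sea squirt, 29 in cleavage and 33 in sperm for sea urchin, 16 in cleavage and 42 in sperm for Florida, and 11 in cleavage and 14 in sperm for Massachusetts. The part of depth in these counts was not tested. The differences between species were not tested, as each stage has 1 set of counts.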

How the data were processed

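WGBS libraries of sea squirt cleavage embryos and sperm were used, with oocytes and gastrulae for sorting. The authors used Trimmomatic for trimming and Bismark for alignment to the assembly CSAV2.0 with lambda DNA added, removed duplicates, clipped overlapping read pairs with bamUtil and extracted calls with Bismark. SAMtools 0.1.19 is listed in the submitters' processing notes, and the other versions are not given in the sources used here. The authors deposited counts of reads with and without methylation for each covered CpG, both strands together and replicates pooled. They also deposited the methylation level as a fraction, which equals methylated reads over all reads and is not corrected for non-conversion. Pooling hides the spread between replicates. Deep CpGs, such as those of scaffold_1, weigh heavily where reads are pooled.

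Samples were grouped by the labels. A CpG was compared where each stage had 5 reads or more. Windows of 1000 bp with at least 3 such CpGs were tested by Fisher's exact test (two-sided) on summed reads, adjusted by Benjamini-Hochberg over all windows, and counted where the adjusted p was below 0.05 and the mean CpG levels differed by 0.2 or more. Intervals of 95% are binomial, by the normal approximation, and treat the counts of different CpGs as independent. Windows named are the 5 largest counted differences per direction with at least 10 CpGs and a median depth of at most 5 times that of the set, and the 2 longest runs per direction. Scaffolds named are the 5 with the most compared CpGs, those with a named window, and others said to be chosen by their values. Members and lists were chosen with earlier results of these data known. Deposited starts were taken to count from 0. Alternatives covered read and CpG minimums, window size, thresholds, depth, pooling, background level and centring. Genes, promoters, repeats and sequences were not analysed here, as no annotation or genome of this assembly was used. Calculations were done in Python 3.11.15 with numba 0.67.0, pandas 2.3.3 and numpy 2.4.6, figures in matplotlib 3.10.9, and scipy 1.17.1 served to check the test on simulated data.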

Additional observations from a re-analysis of the deposited data

Results flagged for a closer look

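The difference of the mean CpG level, cleavage minus sperm, was of opposite sign in sea squirt and in 2 other pairs of the study. It was -0.0145 in sea squirt, with 0.275 in cleavage and 0.289 in sperm. It was 0.000443 in sea urchin, with 0.2623 in cleavage and 0.2619 in sperm, and -0.00333 there when reads were pooled, so its sign depends on the weighting. In sea anemone from Massachusetts it was 0.0107, with 0.144 in cleavage and 0.133 in sperm. The difference between species was not tested, since each stage has 1 pooled set of counts.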

How the results depend on the processing

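The difference of mean CpG levels, cleavage minus sperm, was negative under every alternative run. It was -0.0142 at 10 reads or more, -0.0147 at 1 read or more, -0.0146 without CpGs over 5 times the median depth, -0.0142 over CpGs with at least 5 reads in all 4 sea squirt stages, -0.0130 with the background level subtracted and -0.0195 as a mean over windows. With reads pooled it was -0.0338, and -0.0158 when the deep CpGs were also left out or, chosen after seeing the data, when scaffold_1 was left out. It moved by less than its counting interval at equal depth and without scaffold_1.

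The count of 345 windows was within 1.5 times under 9 alternatives, between 251 and 426. It was 1217 with windows of 500 bp, 88 with windows of 2000 bp, 225 with at least 10 CpGs, 4105 at a minimum difference of 0.1 and 62 at 0.3. With the adjusted p alone, which was chosen after seeing the data, it was 41808. The share of counted windows lower in cleavage lay between 74.2% and 89.5% in these, except with centring within gastrula intervals, also chosen after seeing the data, where it was 54.2%. The count of 2590 CpGs was 1547 at a minimum difference of 0.3 and 1204 at equal depth, and 2704 at 10 reads or more.

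The 10 named windows were counted in each of the 27 cases recomputed for them, but 3 of them, on scaffold_149, scaffold_266 and scaffold_236, had too few CpGs to be tested at 10 reads or more. Of the 12 windows in the 4 runs named by rule, 6 were not counted under at least 1 alternative, in 10 of 34 cases. None turned round. The first window on scaffold_216 was the farthest below the threshold, with -0.0895 at 10 reads or more. The first and last windows of the run on scaffold_227 had too few CpGs to be tested at that setting.

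No paired analysis was possible because the deposited counts hold 1 pooled set per stage. No replicate was left out, as the counts do not hold replicates apart. The main limits are thus the pooling, which keeps the spread between replicates out of the deposited counts, and depth, as windows with a median of under 15 reads made up 49.6% of those counted.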
